A study of Mus musculus with 23 samples.

Results

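The T1D effect shared by both genotypes was measured in marrow-depleted femur and tibia from 23 of 23 female mice of the series, by setting the 12 T1D mice against the 11 Control mice with genotype as a blocking factor. The value of a gene is therefore 1 change fitted to WT mice and to mice labelled Sarm1-KO (KO) together, and genes were read for a change in the same direction in both. Of the WT mice, 5 were Control and 6 T1D, and of the KO mice 6 were in each condition, with 1 bulk RNA-Seq library per mouse. All mice were C57BL6/N and 11 weeks old. The KO is a global deletion of Sarm1, an NADase of nerve axons. T1D had been induced at 8 weeks of age with streptozotocin at 100 mg/kg per injection, a drug that kills the insulin-producing beta cells of the pancreas. It had lasted 3 weeks, while Control mice received saline. In the study's methods the injection was repeated, and mice whose fed glucose stayed under a set limit were injected once more. The number of doses may therefore differ among T1D mice. Per the study's methods, part of the WT mice were littermates of the KO mice and part were bought, so that origin may differ within WT.

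Without insulin, tissues switch from glucose to fatty acids as fuel, fat cells release lipid, and genes that insulin normally holds down are released. Bone from which the marrow was spun out still holds osteoblasts, osteocytes and osteoclasts, together with vessels, residual blood-forming cells, macrophages, lymphocytes and some fat cells. Interferons, the cytokines of antiviral defence, act through a complex of transcription factors on a short DNA element in front of their target genes, and a low level of this activity is present in healthy bone and marrow. In whole tissue, fewer cells of a type and less RNA per cell cannot be told apart.

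Depth was similar, at 16938101 to 20135592 counts per mouse, although T1D mice had more counts (18636800 ± 695674, SD, n = 12) than Control mice (17842800 ± 530676, n = 11, two-sided exact permutation test within genotype, p = 0.00412, adjusted over 4 values p = 0.0165). Hemoglobin genes took 8.01% to 21.4% of counts, with a mean of 14.3% ± 3.65 in T1D and 11.2% ± 2.26 in Control mice (the same exact permutation test, p = 0.0179, adjusted p = 0.0294). Within WT, hemoglobin went from 10.8% ± 1.75 (Control, n = 5) to 16.7% ± 3.70 (T1D, n = 6). Within KO it stayed close, at 11.5% ± 2.74 in Control and 11.9% ± 1.32 in T1D mice (n = 6 each), so that the pooled rise lay mostly in WT mice. A pair of WT T1D libraries stood apart, A3905 and A3906. They had the highest hemoglobin shares (21.4% and 21.0%) and a summed level of osteoblast genes of 9950 and 8010 CPM (counts scaled to the size of the library), where the other 21 mice had 62213 to 136410 CPM. Osteocyte genes in the same 2 libraries (604 and 633 CPM) lay inside the range of the other mice. Values without these libraries are given beside the results they moved most. Sarm1 itself gave 0.268 to 1.76 CPM in Control mice and 0.34 to 1.46 CPM in T1D mice, and its mean was lower in KO than in WT libraries among Control mice (0.799 and 1.17 CPM) but higher among T1D mice (1.19 and 0.687 CPM), with overlapping values, so that these low counts did not check the genotype. The T1D change of Sarm1 was -0.07 on the log2 scale (standard error 0.292, adjusted p = 0.935 by edgeR's quasi-likelihood test).

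Over both genotypes, 9 of 14364 genes passed the threshold of an adjusted p under 0.05 (edgeR quasi-likelihood test, Benjamini-Hochberg). Klf11, Angptl4, Adcyap1r1 and Madcam1 were higher with T1D (0.0278% of the genes tested), and Slfn5, Tek, Ccl2, Samd9l and Tnfsf15 were lower (0.0348%). Each of the 9 had the same sign in WT and KO mice. Without the threshold on adjusted p, 1104 genes were higher (7.69%) and 953 lower (6.63%) at an unadjusted p under 0.05. Of these 2057 genes, 1984 had the same sign in both genotypes, which a p for the average over both makes likely by its construction; of all genes tested, 55.5% did. In the 2-way model (edgeR, the same 14364 genes), 334 genes passed in WT mice alone and 0 in KO mice alone. At an unadjusted p under 0.05 there were 3195 genes in WT mice and 452 in KO mice. The number in KO mice is a smaller share of the genes tested than the level of 0.05 itself. For the interaction 0 genes passed (1467 unadjusted), so that for no gene was a difference between the genotypes shown.

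The 4 genes that rose belong to lipid handling, transcription, neuropeptide signalling and cell adhesion. Angptl4 (chr17:33774900-33781575), a secreted inhibitor of lipoprotein lipase that fasting induces, ran from 15.6 to 39.4 CPM in Control mice (median 25) and from 23.4 to 86.9 CPM in T1D mice (median 50.2). All 6 WT T1D mice lay above all WT Control mice, and 3 of the 6 KO T1D mice lay above all KO Control mice. Its change was 1.93-fold (log2 0.95, standard error 0.175, adjusted p = 0.0429), with log2 values of 1.31 in WT and 0.62 in KO. Klf11 (chr12:24651371-24662782), a Krüppel-like transcription factor, had values of 20.2 to 39.4 CPM in Control (median 25.7) and 29.1 to 50.2 CPM in T1D mice (median 38.7). All 6 WT T1D mice lay above the WT Control mice, but 0 KO T1D mice lay above the highest KO Control mouse, A3670 at 39.4 CPM. Klf11 rose 1.39-fold (log2 0.48, standard error 0.0865, adjusted p = 0.0429), by log2 0.59 in WT and 0.38 in KO.

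Adcyap1r1 (chr6:55451501-55501455), the receptor for the neuropeptide PACAP, was a low gene, at 0.165 to 1.86 CPM in Control mice (median 0.733) and 0.819 to 5.63 CPM in T1D mice (median 2.50). The groups of WT mice did not overlap, and 5 of 6 KO T1D mice lay above all KO Control mice. The change was 2.97-fold (log2 1.57, standard error 0.305, adjusted p = 0.0491). Madcam1 (chr10:79664559-79668542), the addressin that guides lymphocytes through vessel walls, was nearer still to the limit of detection, with 0 to 0.169 CPM in Control mice and 0 to 2.55 CPM in T1D mice (medians 0.0551 and 0.407). Its log2 change of 3.16 (standard error 0.536, adjusted p = 0.0429) rests on a few reads per library in Control mice. The change was 3.69 in WT and 2.20 in KO, where T1D mice had 0 to 0.431 CPM. The 2 highest values, 2.55 and 2.31 CPM, were those of A3905 and A3906, and the change without them was 2.67. Madcam1 and Tnfsf15 were named after their values were seen, since their means are under 1 CPM.

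The 5 genes that fell included a pair of interferon-inducible genes, a chemokine and an endothelial receptor. Slfn5 (chr11:82951349-82964850), an interferon-inducible member of the Schlafen family, ran from 55.8 to 75.0 CPM in Control (median 69.2) and from 27.3 to 60.6 CPM in T1D mice (median 48.6). Every KO T1D mouse lay under the KO Control range, and 5 of 6 WT T1D mice lay under the WT Control range. Slfn5 was 1.46-fold lower (log2 -0.55, standard error 0.101, adjusted p = 0.0429), with -0.68 in WT and -0.43 in KO. It overlaps an antisense gene, Slfn5os, and it is not given whether strand was used in counting. Samd9l (chr6:3372257-3399571), which restricts virus replication and cell growth, fell by 0.29 on the log2 scale (standard error 0.056, adjusted p = 0.0491), from 85.1 to 113 CPM in Control (median 91.2) to 66.9 to 94.4 CPM in T1D mice (median 73.9). The WT groups did not overlap for Samd9l, and 4 of 6 KO T1D mice lay below all KO Control mice.

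Ccl2 (chr11:82035577-82037452), the chemokine that draws monocytes into tissue, had 1.1 to 2.76 CPM in Control (median 1.80) and 0.226 to 1.69 CPM in T1D mice (median 0.526). In 11 of 12 T1D mice Ccl2 lay below every Control mouse of either genotype. It was 2.76-fold lower (log2 -1.46, standard error 0.275, adjusted p = 0.0435), by -1.55 in WT and -1.39 in KO. Tek (chr4:94739086-94874976), the Tie2 receptor for angiopoietins on endothelium, had 14.5 to 22.6 CPM in Control (median 18.7) and 9.61 to 18.5 CPM in T1D mice (median 13.2). Its change was -0.45 (standard error 0.0837, adjusted p = 0.0429), with -0.44 in WT and -0.46 in KO, the closest match between genotypes among the 9 genes. Tnfsf15 (chr4:63724600-63745059), a TNF family cytokine made by endothelium, fell from 0.165 to 0.937 CPM in Control to 0.0539 to 0.401 CPM in T1D mice (medians 0.658 and 0.180, log2 -1.54, standard error 0.3, adjusted p = 0.0491).

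**Figure D1:**
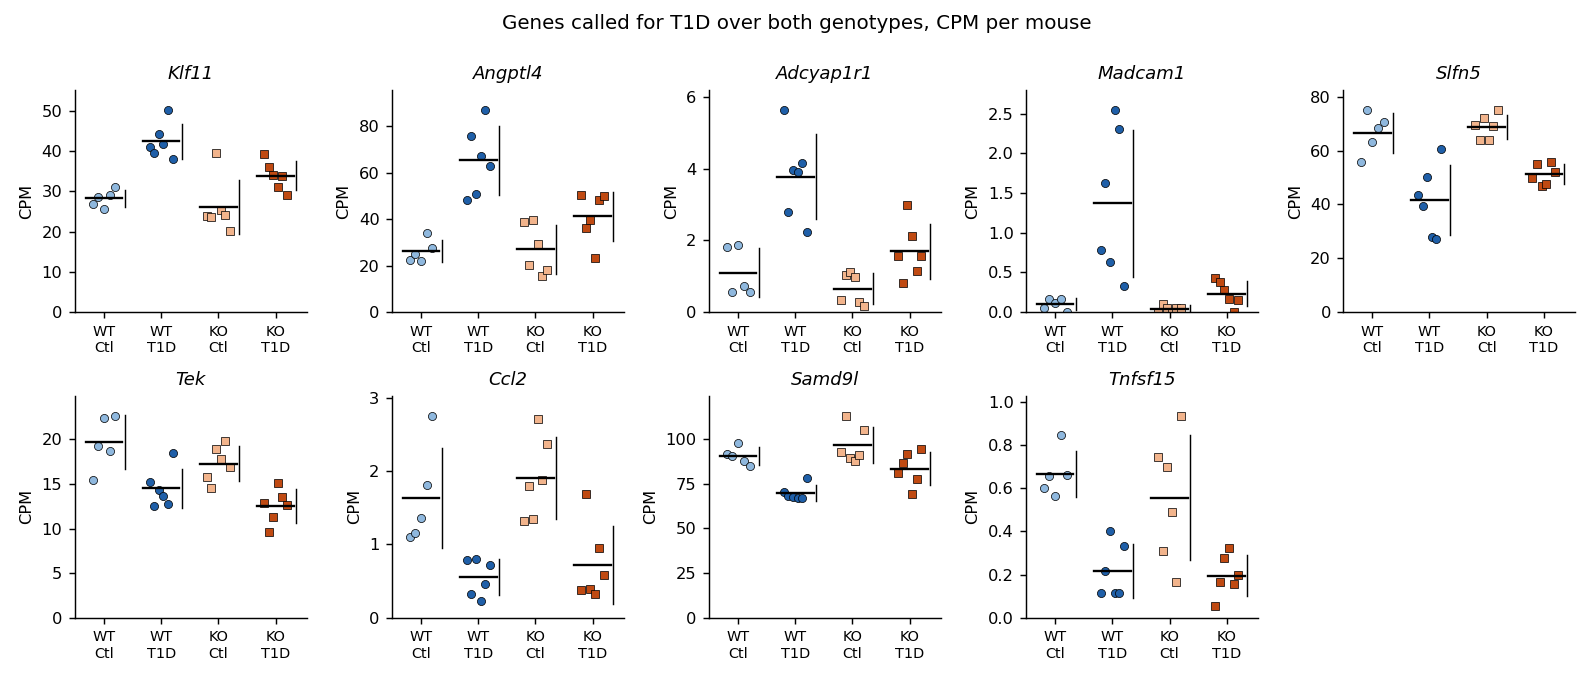
CPM per mouse (vertical axes) of the 9 genes that passed the threshold, by genotype and condition (5, 6, 6 and 6 mice from left to right); horizontal bars are means and vertical lines 1 SD to each side. Klf11, Angptl4, Adcyap1r1 and Madcam1 had higher means with T1D in both genotypes, and Slfn5, Tek, Ccl2, Samd9l and Tnfsf15 lower ones.

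All 9 kept their sign in every alternative in which they could be tested, but the calls were near the threshold. None of the 9 was called with the erythroid score as a covariate (the mean log level of the erythroid genes of each mouse; 613 genes at an unadjusted p under 0.05), with a covariate for the mice of the A17 series (2053 genes) or in the mice of the A36 to A39 series alone (2024 genes), all with edgeR. The series were read from the mouse names alone. A17 mice were A1757 (WT Control) and A1764, A1787 and A1758 (WT T1D), so that series and T1D are partly confounded within WT. With A3905 and A3906 left out, Slfn5 remained called (log2 -0.45) and the other 8 did not, with Angptl4 at 0.85, Klf11 at 0.44, Tek at -0.43 and Ccl2 at -1.36, while 5 genes were called in all (Slfn5, Klk1, Oas2, Car1 and Cd4). The count was 0 when any 1 of 13 mice was left out (A1757, A3767, A3903, A3904, A3907, A1764, A1787, A3905, A3906, A3673, A3766, A3681 or A3683).

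Just outside the threshold lay Cd4, the co-receptor of helper T cells and some myeloid cells, at 29.7 to 55.4 CPM in Control and 13.7 to 36.9 CPM in T1D mice (log2 -0.58, standard error 0.116, adjusted p = 0.0637), and Txnip, which glucose induces and which restrains glucose uptake, at 267 to 353 CPM and 330 to 608 CPM (log2 0.43, standard error 0.0874, adjusted p = 0.0697). All 6 KO T1D mice lay below the KO Control mice for Cd4 and above them for Txnip. Klk1, tissue kallikrein, was at 11.9 to 23.5 CPM in Control and 0.849 to 16.0 CPM in T1D mice (log2 -1.27, adjusted p = 0.104). Its 2 lowest values, 0.849 and 0.867 CPM, were those of A3905 and A3906, and its log2 change without them was -1.02. Mc5r, a melanocortin receptor, had log2 0.88 (adjusted p = 0.103) and Abca1, the cholesterol exporter, -0.44 (adjusted p = 0.108). Ptchd1, at 1.65 to 2.42 CPM in Control and 0.436 to 1.61 CPM in T1D mice, was the 1 gene of 14364 in which every T1D mouse lay below every Control mouse (log2 -0.82, adjusted p = 0.113), and 0 genes had every T1D mouse above every Control mouse.

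A rule of size gave a broader set. It asked for a log2 change beyond 0.35 in one direction in each genotype, a T1D p under 0.01 and no interaction at a p under 0.05, all unadjusted. It took 39 genes as higher (0.272% of those tested) and 51 as lower (0.355%), and 7 of the 9 genes above were among them. Angptl4 was left out by its interaction p of 0.0403, and Samd9l by its change of -0.21 in KO mice. The higher genes included the fat cell genes Cfd, Cidec and Plin1, the apolipoprotein gene Apoc2, the acyl-CoA thioesterase Acot2, the clock gene Per1, the acute-phase gene Orm1 and Foxp3, the factor of regulatory T cells. The lower genes included Cxcl10 and Cxcl16 of the chemokine system, Gbp4, Ddx60, Ifi213, Ifit1, Ifit3, Oas1a, Oas1g, Oas2 and Ifi27l2a of the interferon response, the stearoyl-CoA desaturase Scd2 and complement C2. Membership is what the rule chose and is given as a description. The members nearest to the limit were Atp1b2 (0.35 in KO) and Zfp626 (-0.35 in WT), and just outside it lay Gbp9 (-0.35 in KO, short of the limit in the next decimal) and Usp18 (-0.34 in KO). The rule took 72 genes when A3905 and A3906 were left out, of which 58 were among the 90.

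Interferon-stimulated genes were lower as a group. All 41 measured members had a negative change, 38 of 41 in both genotypes, and 35 had an unadjusted p under 0.05 (6.63% of all genes were lower at that level), although 0 passed the adjusted threshold in the edgeR test. The median change was -0.42 on the log2 scale (-0.55 in WT and -0.23 in KO), where all genes had a median of -0.01. The summed level of the list was 1616 to 2129 CPM in WT Control, 862 to 1725 CPM in WT T1D, 1898 to 2128 CPM in KO Control and 1440 to 2084 CPM in KO T1D mice. The lowest values, 862 and 1020 CPM, were those of A3905 and A3906. Without these 2 mice, 40 of 41 members were still lower and 33 had an unadjusted p under 0.05, with a median of -0.29. With the erythroid score of each mouse as a covariate, 40 of 41 were lower and 4 had an unadjusted p under 0.05, with a median of -0.15.

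Parp14, an ADP-ribosyltransferase of macrophages and lymphocytes, led the list, at 59.0 to 75.3 CPM in Control and 35.9 to 65.1 CPM in T1D mice (log2 -0.35, standard error 0.0774, adjusted p = 0.108). Within each genotype all 6 T1D mice lay below all Control mice. Gbp4, a guanylate-binding protein, ran from 15.4 to 26.5 CPM in Control and 8.55 to 23 CPM in T1D mice (log2 -0.61, adjusted p = 0.116). Cxcl10, the chemokine that attracts activated T cells, ran from 4.83 to 15.8 CPM in Control and 0.906 to 9.72 CPM in T1D mice (log2 -1.05, adjusted p = 0.157, with -1.59 in WT and -0.59 in KO). Oas2 and Oas1a, which make the 2-5A that activates RNase L, and Ifit3, which holds back foreign RNA, were named after their values were seen. Their changes were -0.90, -0.67 and -0.73 (adjusted p = 0.181, 0.188 and 0.181), and without A3905 and A3906 they were -0.67, -0.48 and -0.56. Oas1a and Oas1g, Ifit3 and Ifit3b, and the Gbp genes have close copies, among which reads can be split. Not all members moved alike: Isg15, at 32.6 to 67.5 CPM in Control and 33.1 to 65.4 CPM in T1D mice, had a change of -0.05 (adjusted p = 0.825), and Isg15, Rsad2 and Cmpk2 had positive changes in WT mice.

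**Figure D2:**
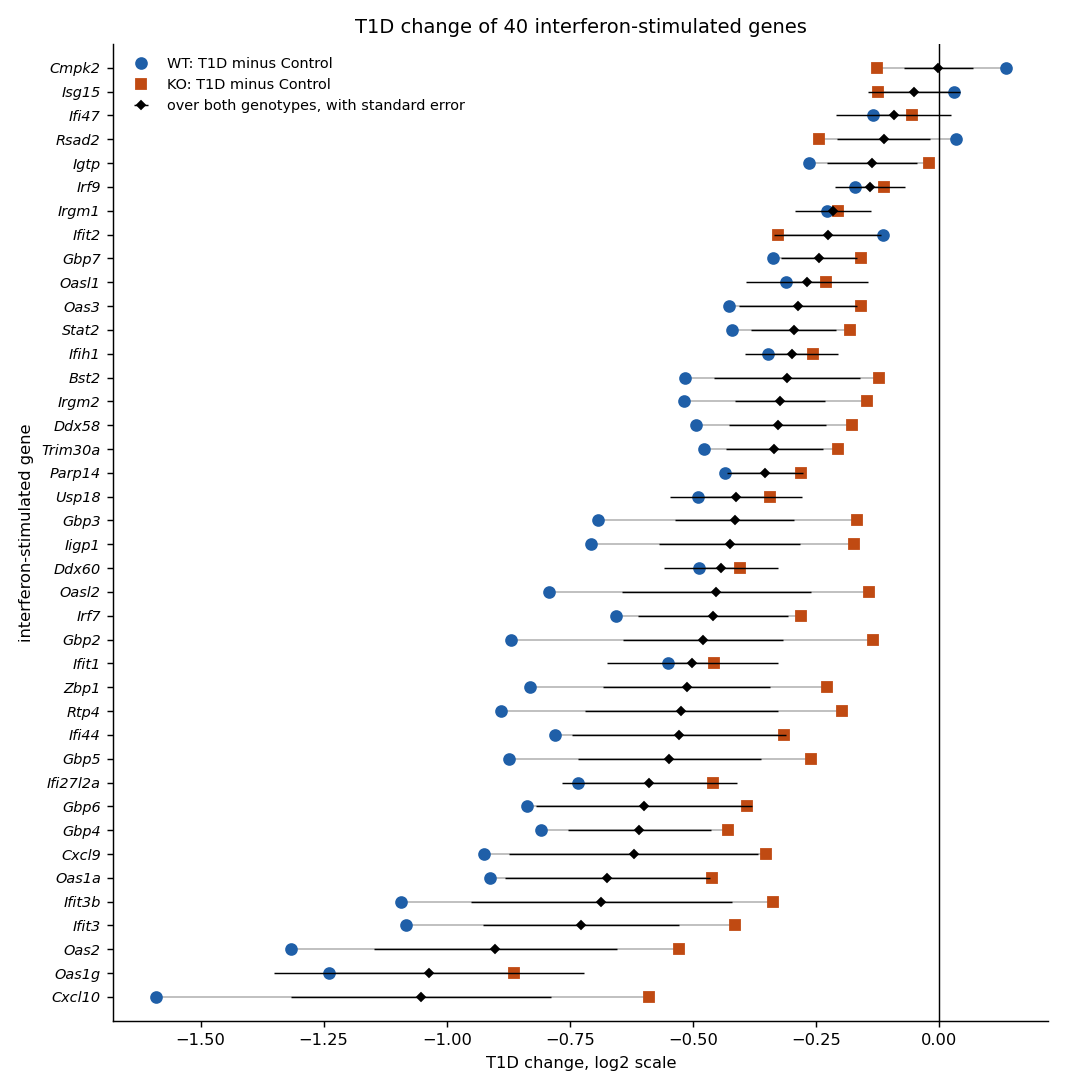
T1D change (horizontal axis, log2 scale) of 40 of the interferon-stimulated genes (rows) in WT mice (circles), in KO mice (squares) and over both genotypes (diamonds, with the standard error), sorted by the change over both. The 40 diamonds lie left of 0, from -1.05 for Cxcl10 to 0.00 for Cmpk2, and 3 genes have their circle right of 0.

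The core of the element bound by the interferon-activated complex can be read in these promoters. The letters GAAANNGAA (on either strand; overlapping matches were allowed) were searched in RefSeq promoters of GRCm38.p6, from 250 bases before to 50 bases after the start. Of the 41 interferon genes, 31 had a promoter in the table and 24 of these held the motif (77.4%), against 8.96% of the 11351 tested genes with a promoter and 8.56% of all promoters. Among the genes of the size rule, 11 of 33 lower genes with a promoter held it (33.3%; 5 of 27 outside the interferon list, 18.5%) and 2 of 29 higher genes did (6.90%). Of the called genes with a promoter in the table, 2 of 4 lower genes held it, Slfn5 and Samd9l (at 39 bases after the start), and 0 of 3 higher genes did. Stretches before the start are shown for a called gene (Slfn5), for 3 genes of the interferon list that were lower in both genotypes (Cxcl10, Oas1a, Ifit3) and for the one with the same motif but nearly no change (Isg15), each 5′ to 3′ on the strand of the gene, with motif matches in capitals.
Slfn5: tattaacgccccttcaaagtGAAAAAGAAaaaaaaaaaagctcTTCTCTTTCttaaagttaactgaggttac
Cxcl10: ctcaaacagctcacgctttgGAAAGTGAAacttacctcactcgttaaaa
Oas1a: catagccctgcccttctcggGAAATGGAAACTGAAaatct
Ifit3: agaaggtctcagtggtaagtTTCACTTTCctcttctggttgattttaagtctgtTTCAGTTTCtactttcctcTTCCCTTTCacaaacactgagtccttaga
Isg15: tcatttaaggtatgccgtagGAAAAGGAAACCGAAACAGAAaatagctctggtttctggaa
They lie at chr11:82951927-82951998 (plus strand, -175 to -104 from the start), chr5:92349074-92349122 (minus strand, -233 to -185), chr5:120907526-120907565 (minus strand, -40 to -1), chr19:34583354-34583455 (plus strand, -175 to -74) and chr4:156200856-156200916 (minus strand, -98 to -38). In the GENCODE vM21 annotation the Slfn5 stretch is inside the annotated span of Slfn5, with 14 of its bases in an exon of one Slfn5 transcript, and inside Slfn5os on the other strand. The Cxcl10 stretch is inside an intron of Art3 on the other strand, and the other 3 overlap no gene. Slfn5 has 2 matches, on opposite strands, Cxcl10 has 1, Oas1a 2, Ifit3 3 and Isg15 3, so that the number of matches did not order the changes of these 5 genes.

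Genes of antigen presentation and of dendritic cells had negative changes, and 0 of them passed the adjusted threshold. At an unadjusted p under 0.05, 6.63% of all genes were lower and 7.69% higher. All 20 genes of MHC and antigen presentation had negative changes (12 in both genotypes, 7 at an unadjusted p under 0.05, median -0.18, with -0.38 in WT and -0.03 in KO). Nlrc5, the activator of MHC class I genes, had the lowest p of the list (log2 -0.33, adjusted p = 0.212), followed by H2-Q4 and Psmb9 (-0.27 and -0.22). All 14 dendritic cell genes had negative changes and 6 an unadjusted p under 0.05, with a median of -0.29 and Clec10a (-0.36), Itgax (-0.27) and Tcf4 (-0.26) in front. The counts at that level were 3 of 20 and 5 of 14 without A3905 and A3906 (medians -0.11 and -0.17), and 0 of 20 and 0 of 14 with the erythroid score as a covariate (medians -0.07 and -0.08). Of 29 chemokine and chemokine receptor genes, 7 were lower and 2 higher at an unadjusted p under 0.05, with Ccl2 called. Among 23 T and NK cell genes, 4 were lower at an unadjusted p under 0.05, Cd4, Lag3 (-0.56), Cd8a (-0.48) and Zap70, and 13 had opposite signs in the genotypes. Among 23 macrophage and monocyte genes 5 were lower and 2 higher at that level (2 and 1 without A3905 and A3906), with Ms4a7 at -0.36 and Fcgr1 at -0.32, and with Vsig4, a complement receptor of resident macrophages, at 1.01 (adjusted p = 0.176).

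Genes of the fasting state had mostly positive changes. Of 20 insulin-repressed and fasting genes, 17 had a positive change, 11 in both genotypes, and 10 had an unadjusted p under 0.05 (7.69% of all genes were higher at that level). Angptl4 was the called member. The median was 0.22 (0.61 in WT and 0.02 in KO). Cpt1a, which admits long-chain fatty acids to mitochondria, ran from 68.4 to 108 CPM in Control (median 86.1) and from 87.0 to 188 CPM in T1D mice (median 113), with log2 0.47 (standard error 0.109, adjusted p = 0.113). Slc25a20, the carnitine carrier, and Acot2 followed at 0.53 and 0.52 (adjusted p = 0.113 and 0.176; 0.42 and 0.36 without A3905 and A3906; named after their values were seen). Without A3905 and A3906, 18 of 20 were higher and 9 had an unadjusted p under 0.05, and Cpt1a stood at 0.35 and Txnip at 0.32.

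Of 18 glucocorticoid-responsive genes, 17 had a positive change and 7 an unadjusted p under 0.05 (7.69% of all genes were higher at that level). The median was 0.26 (0.47 in WT and 0.09 in KO). Per1, a clock gene that glucocorticoids induce, had 26.7 to 87.0 CPM in Control (median 35.9) and 32.6 to 136 CPM in T1D mice (median 88.9), with wide overlap (log2 0.84, standard error 0.242, adjusted p = 0.181). Fkbp5, the feedback chaperone of the glucocorticoid receptor, had 28.7 to 43.8 CPM in Control and 32.2 to 118 CPM in T1D mice (log2 0.52, adjusted p = 0.234). Its 2 highest values, 105 and 118 CPM, were those of A3905 and A3906, and its change without them was 0.23. Tsc22d3, the mediator GILZ, stood at 0.44 (0.38 without them). Without the 2 mice, 13 of 18 genes of the list were higher and 3 had an unadjusted p under 0.05, with a median of 0.08. With the erythroid score as a covariate, 0 of 18 were at that level and the median was 0.04.

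Of 15 fat cell genes, 8 were higher and 1 lower at an unadjusted p under 0.05 (7.69% and 6.63% of all genes). Their median was 0.32 (0.48 in WT and 0.16 in KO). The median was 0.18 without A3905 and A3906, and 0.11 with the erythroid score as a covariate, with 6 and 3 members higher at that level. On the TPM scale (limma, TPM + 1), 3 members were higher and 1 lower at that level, with a median of 0.15. Cfd, the complement factor adipsin of fat cells, ran from 8.70 to 47.5 CPM in Control (median 14.9) and from 15.2 to 96.9 CPM in T1D mice (median 46.9). Its change was 1.12 (standard error 0.264, adjusted p = 0.113), with 1.21 in WT and 1.04 in KO, and 0.94 without A3905 and A3906. Cidec, which enlarges lipid droplets, had 0 to 2.14 CPM in Control and 0.593 to 16.0 CPM in T1D mice. A3905 and A3906 gave 12.5 and 16.0 CPM of Cidec, and its change of 1.51 became 0.92 without them. Lipe, the hormone-sensitive lipase, stood at 0.28 (adjusted p = 0.181) and Adipoq, adiponectin, at 0.21 (adjusted p = 0.332), whereas Pparg was at -0.20 (adjusted p = 0.257). The summed level of the list overlapped between the groups (1101 to 1890 CPM in Control and 1238 to 2027 CPM in T1D mice). Tac2, the tachykinin precursor neurokinin B, ran from 3.11 to 8.49 CPM in Control and 6.49 to 12 CPM in T1D mice (log2 0.64, standard error 0.158, adjusted p = 0.137), with 0.72 in WT and 0.57 in KO and 0.66 without A3905 and A3906.

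**Figure D3:**
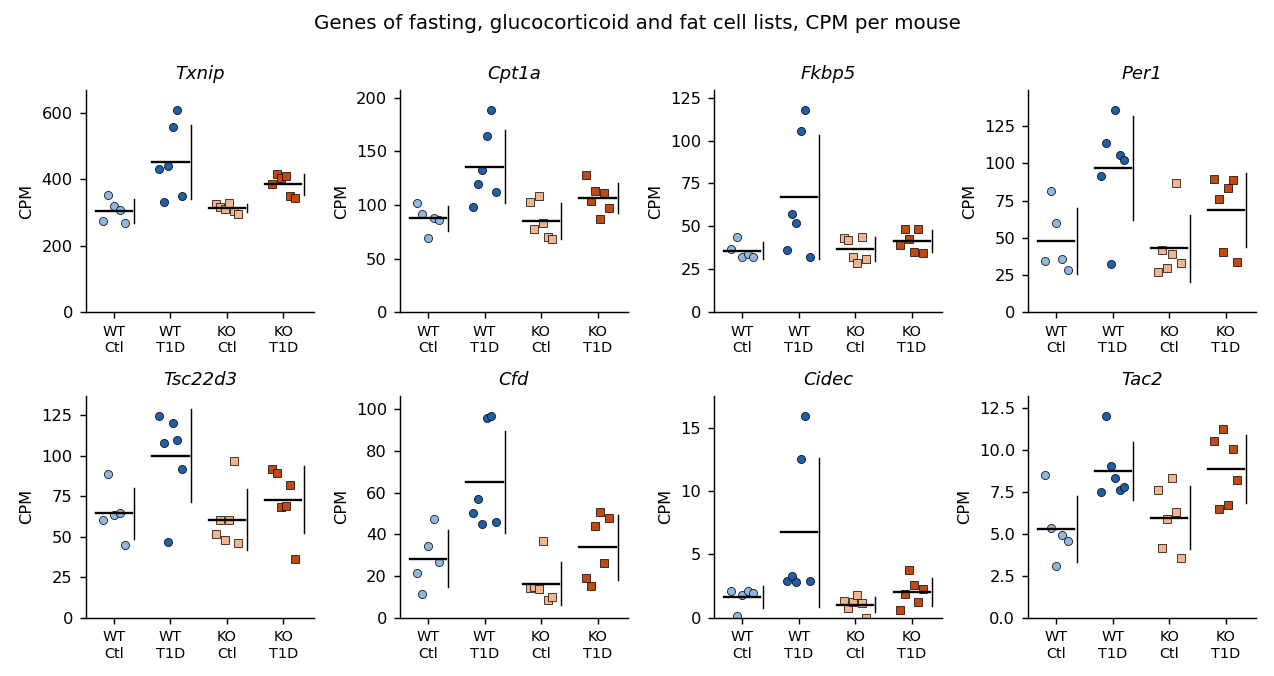
CPM per mouse (vertical axes) of 7 genes of the fasting, glucocorticoid and fat cell lists and of Tac2, by group (n = 5, 6, 6 and 6; bars are means, vertical lines 1 SD to each side). In Fkbp5, Cidec and Cfd, 2 WT T1D mice (A3905 and A3906) stand above the other 4, whereas Tac2 is raised without such a gap.

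Lists of related pathways followed. Among 18 acute-phase and stefin genes 8 were higher at an unadjusted p under 0.05 (7.69% of all genes), with a median of 0.19. On the TPM scale their median was -0.01, where all genes had -0.14. Without A3905 and A3906, 4 members were higher at that level, with a median of 0.10. Stfa2, a cysteine protease inhibitor of neutrophils with close copies, ran from 0.286 to 1.3 CPM in Control and 0.895 to 42.6 CPM in T1D mice (log2 2.56, or 1.50 without A3905 and A3906, at 42.6 and 14.3 CPM). Of 16 lipogenesis genes 10 had a negative change, 2 of them at an unadjusted p under 0.05 (6.63% of all genes were lower at that level), Scd2 (-0.56, adjusted p = 0.181) and Acaca (-0.21), both enzymes that insulin normally supports. Of 22 cholesterol synthesis genes 3 were lower at that level, among them Hmgcs1 (-0.20). Among 19 genes of insulin and IGF signaling 2 were higher and 2 lower at that level, with Irs2 at 0.22 and Grb10 at -0.34 (0.21 and -0.20 without A3905 and A3906), and among 22 glycolysis genes Hk1 was at 0.22 and Hk2 at -0.25 (adjusted p = 0.184 and 0.209). Of 18 circadian clock genes 2 were higher at that level, Per1 and Nfil3 (0.20), and 2 lower, one of them Clock (-0.20).

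Red cell and proliferation genes had mostly positive changes, and 0 of them passed the adjusted threshold. At an unadjusted p under 0.05, 7.69% of all genes were higher. All 25 erythroid genes had a positive change (21 in both genotypes, 22 at an unadjusted p under 0.05), with a median of 0.32 (0.56 in WT and 0.08 in KO). The summed level was 83792 to 170174 CPM in Control and 113258 to 245320 CPM in T1D mice, highest in A3905 and A3906. Car1, the carbonic anhydrase of early red cells, ran from 155 to 319 CPM in Control and 314 to 1561 CPM in T1D mice (medians 237 and 387). The 2 highest values, 1309 and 1561 CPM, were those of A3905 and A3906. Its change was 1.08 (standard error 0.263, adjusted p = 0.131), with 1.77 in WT and 0.46 in KO, and 0.65 without those libraries, at which it was called. Rhd and Car2 followed at 0.33 and 0.38 (adjusted p = 0.176 and 0.181). Of 16 heme synthesis genes, 12 were higher at an unadjusted p under 0.05 (median 0.23), and 2 of 16 were without A3905 and A3906. On the TPM scale (limma, TPM + 1), 6 of 25 erythroid and 0 of 16 heme synthesis genes were higher at that level. Their medians there were 0.16 and 0.07, where all genes had -0.14.

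All 27 mitosis and replication genes had positive changes, 23 in both genotypes and 19 at an unadjusted p under 0.05 (7.69% of all genes). Their median was 0.19 (0.34 in WT and 0.06 in KO). On the TPM scale (limma, TPM + 1), 21 were higher and 6 lower, and 0 had an unadjusted p under 0.05. The median there was 0.03, where all genes had -0.14. Mcm7, a subunit of the replicative helicase, ran from 182 to 253 CPM in Control and 230 to 330 CPM in T1D mice (log2 0.24, standard error 0.0661, adjusted p = 0.181). Plk1 and Aurkb, kinases of mitosis, stood at 0.20 and 0.25 (adjusted p = 0.181 and 0.184). When A3905 and A3906 were left out, 13 of 27 had an unadjusted p under 0.05, and with the erythroid score as a covariate 17 were higher and 10 lower, with 1 at that level. Of 26 oxidative stress response genes 6 were higher at an unadjusted p under 0.05, including Cat, catalase (0.26, adjusted p = 0.131; 0.44 in WT and 0.09 in KO), Gpx1 (0.33) and Gclm (0.27), and 0 passed the adjusted threshold. The median was 0.09, with 3 members higher and a median of 0.03 without A3905 and A3906, and 1 higher and 1 lower with the erythroid score as a covariate (median -0.01). On the TPM scale 1 was higher and 6 lower (median -0.07, where all genes had -0.14). The hemoglobin share moved with all these lists, and its part in them was not tested.

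**Figure D4:**
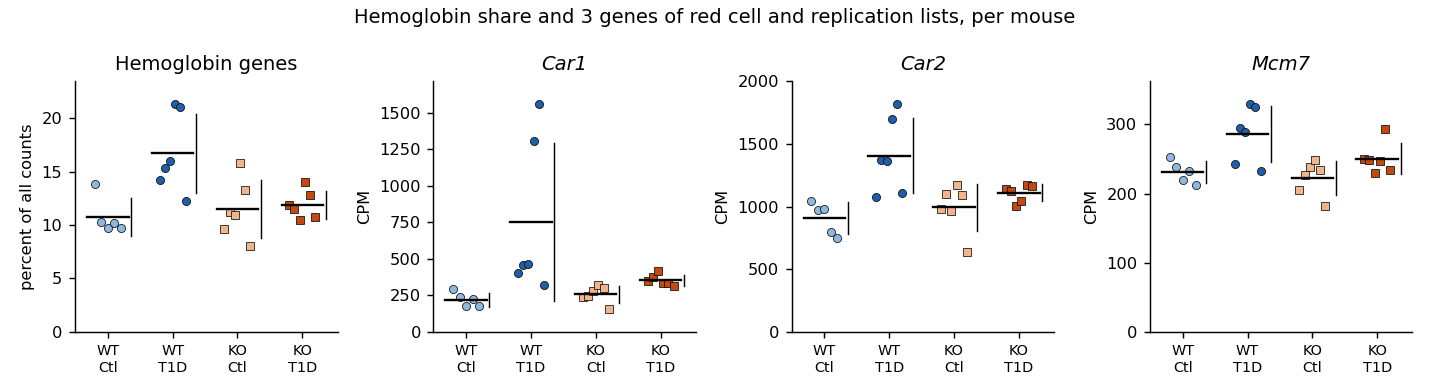
Percent of all counts from hemoglobin genes, and CPM of Car1, Car2 and Mcm7, per mouse (vertical axes), by group (n = 5, 6, 6 and 6; bars are means, vertical lines 1 SD to each side). In WT T1D mice, A3905 and A3906 have the 2 highest values in each panel; KO Control and KO T1D mice overlap for the hemoglobin share.

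Of 21 endothelial genes, 8 were lower and 1 higher at an unadjusted p under 0.05 (6.63% and 7.69% of all genes). In both genotypes 14 were lower and 2 higher, 5 had opposite signs, and the median was -0.14 (-0.22 in WT and -0.13 in KO). Tek was the called member. Flt1, a receptor for VEGF, stood at -0.35 (standard error 0.102, adjusted p = 0.181) with -0.39 in WT and -0.31 in KO, and Tie1, the partner of Tek, at -0.25 (adjusted p = 0.21). Kdr, the main VEGF receptor, was at -0.27 (named after its value was seen). Leaving out A3905 and A3906 gave 7 lower members at that level, and the erythroid score as a covariate 2 (median -0.04). The summed level of the list overlapped between the groups, at 925 to 1223 CPM in Control and 828 to 1172 CPM in T1D mice.

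Skeletal genes did not share a direction. Of 23 osteoblast genes, 14 had opposite signs in the genotypes, with a median of -0.33 over both, -0.72 in WT and 0.06 in KO. Collagen chain genes (23) had -0.32, -0.70 and 0.06, and osteocyte genes (14) -0.19, -0.46 and 0.03. The medians over both genotypes were -0.12 for osteoblast and -0.13 for collagen genes once A3905 and A3906 were left out. With the erythroid score as a covariate they turned to 0.17 in both lists, with 20 of 23 osteoblast and 17 of 23 collagen genes higher. Ibsp, bone sialoprotein, was at -0.38 (adjusted p = 0.21), with -0.78 in WT and -0.01 in KO, and Pth1r, the parathyroid hormone receptor, at -0.42 (adjusted p = 0.339), with -0.88 in WT and 0.00 in KO, and -0.22 without A3905 and A3906. Cartilage genes (18) had the lowest median of all lists, -0.90 (-1.37 in WT and -0.21 in KO). At an unadjusted p under 0.05, 3 members were lower and 1 higher (6.63% and 7.69% of all genes). Of the 18 members, 17 had a negative change at any p. The smallest p was that of the higher one, Sox6 (0.31, adjusted p = 0.219). Sox9 and Acan followed at -0.79 and -1.01 (-0.61 and -0.75 without A3905 and A3906). The highest Sox6 values, 130 and 158 CPM, were those of A3905 and A3906, and the Sox6 change without them was 0.21. These libraries also had the highest hemoglobin shares, and the cell source of Sox6 was not tested. The median of the cartilage list was -0.71 without these libraries and -0.35 with the erythroid score as a covariate. Osteoclast genes (17) had a median of -0.01, and among them only Car2, which red cells also express, had an unadjusted p under 0.05. Without A3905 and A3906, however, 15 of 17 osteoclast genes were lower, 4 of them at an unadjusted p under 0.05, with a median of -0.25. With the erythroid score as a covariate 15 of 17 were lower (median -0.18). In the A36 to A39 mice alone, by contrast, 13 of 17 were higher (median 0.08), as were 12 of 17 with the A17 series as a covariate (median 0.05). Skeletal muscle genes (20), a sign of muscle left on the bone, ranged widely in sum (1122 to 13664 CPM in Control and 345 to 8481 CPM in T1D mice), and 0 of 20 had an unadjusted p under 0.05.

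The other lists had 0 to 3 members at an unadjusted p under 0.05, where 7.69% of all genes were higher and 6.63% lower. There were 0 of 18 neutrophil late granule genes, 0 of 18 megakaryocyte genes, 0 of 12 eosinophil genes and 0 of 8 plasma cell genes. There were 2 of 12 primary granule genes (Mpo at 0.23 and Cst7 at 0.21), 1 of 12 basophil and mast cell genes (Kit, 0.17), 1 of 23 B cell genes (Cd24a, 0.33), and 2 of 21 immediate early genes (Myc, 0.22, and Dusp1, 0.34). There were also 3 of 16 marrow stromal genes (Ebf3, -0.19, Ly6a, -0.21, and Adipoq), 2 of 12 Schwann cell and nerve genes (one of them Mbp, 0.24) and 2 of 20 unfolded protein response genes (Sel1l, -0.11, and Hsp90b1, -0.17). Without A3905 and A3906, 12 of 18 megakaryocyte genes were higher at that level (median 0.24, from 0.10 with them). All 23 B cell genes then had a positive change, 4 of them at that level (median 0.25, from 0.06). In the A36 to A39 mice alone, however, 14 of 18 megakaryocyte and 16 of 23 B cell genes were lower (medians -0.07 and -0.18). With the A17 series as a covariate the medians were -0.03 and -0.16.

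**Figure D5:**
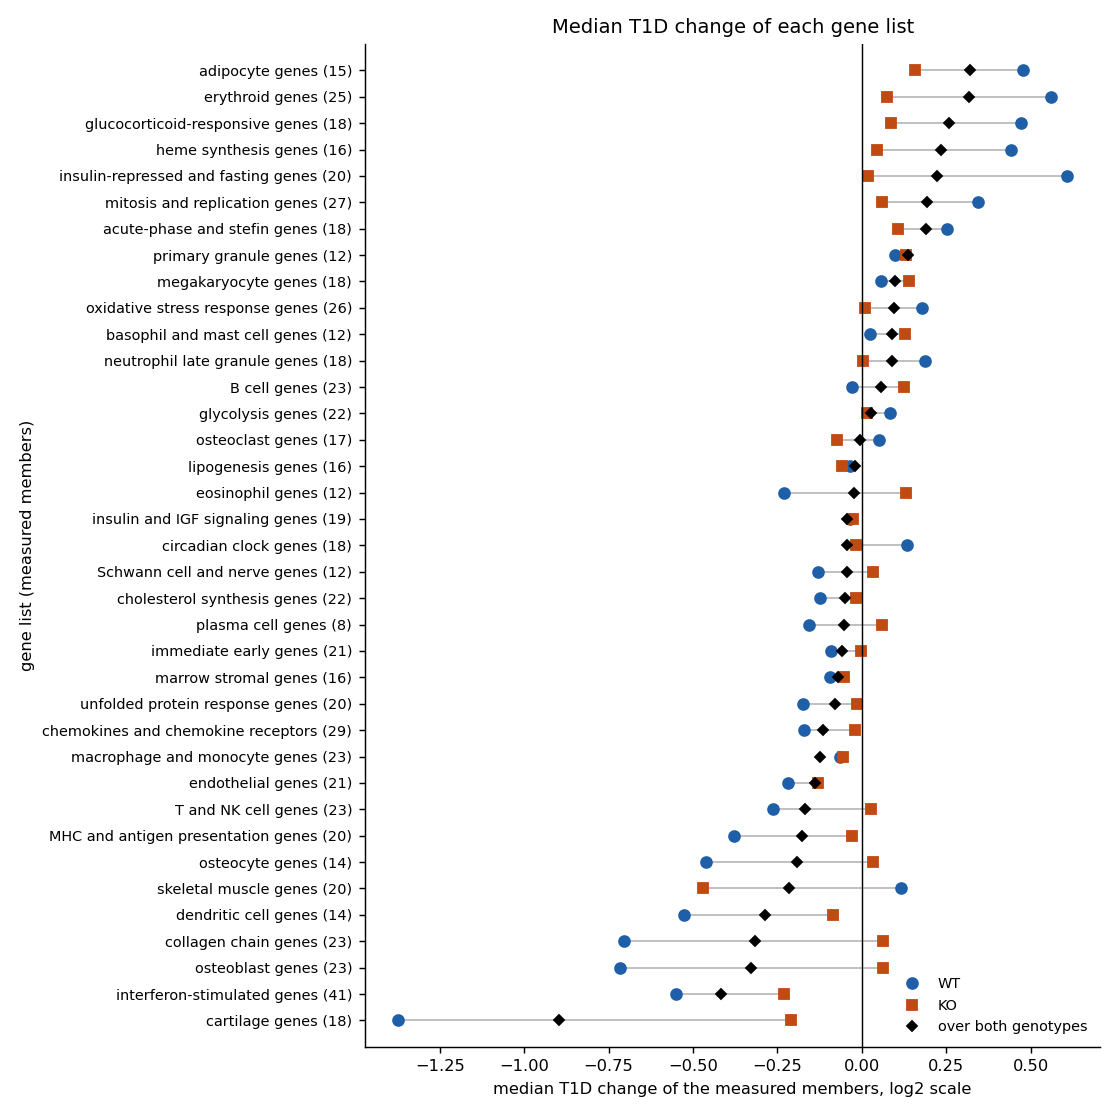
Median T1D change (horizontal axis, log2 scale) of each of 37 gene lists (rows, with the number of measured members) in WT mice (circles), in KO mice (squares) and over both genotypes (diamonds). Fat cell, erythroid, glucocorticoid, heme and fasting lists are at the top and interferon and cartilage lists at the bottom. On the TPM scale the medians of the acute-phase, neutrophil, primary granule, basophil, B cell, megakaryocyte, oxidative stress and glycolysis lists turn from above 0 to below it. The median of all genes on that scale (TPM + 1) is -0.14, and of these lists only that of B cell genes (-0.18) lies below it.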

How the data were processed

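Bulk RNA-Seq values of 23 mice were used, grouped by the library labels. Per the study's methods, mRNA was enriched with oligo dT and sequenced as paired-end reads on the DNBSEQ platform. SOAPnuke served to filter reads, and HISAT and Bowtie2 to align them to GRCm38.p6. The authors deposited raw RSEM expected counts, already rounded, and TPM from the sequencing provider.

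Counts were TMM-normalized and fitted in R 4.3.3 with edgeR 4.0.16 (glmQLFit, glmQLFTest) with terms for genotype and T1D. Of 67228 entries, 14364 reached 10 counts in 5 mice or more and were tested, and p values were Benjamini-Hochberg adjusted over them (threshold 0.05). A 2-way model gave the change in each genotype and the interaction. Log2 values are changes, and CPM are levels. limma 3.58.1 and DESeq2 1.42.0 served as alternatives, as did other normalizations, filters, covariates and leaving out each mouse. Python 3.11.15 (matplotlib 3.10.9, numpy 2.4.6, pandas 2.3.3) gave the permutation tests over 426888 relabelings, promoter searches and plots. Lists are described by counts and medians, without a test. The fit was tested on simulated data.

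Named genes were the 12 higher and 12 lower genes with the largest change among those that passed, averaged 1 CPM or more and had 1 sign in both genotypes, filled up by the smallest unadjusted p where fewer passed, then the 3 members of each of 37 lists with the smallest p, and Sarm1, Car1, Cfd and Tac2. Predicted genes and immunoglobulin or T cell receptor segments were passed over. Other genes were named after their values were seen. The comparison, its gene lists and this rule were chosen with earlier results of these data known. Within groups, all 55 pairs of libraries differed beyond sampling noise, with a chi-square of 10.9 to 187 per gene. Whether counting used strand is not given in the sources used here. Some genes are not reported here.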

Additional observations from a re-analysis of the deposited data

Results flagged for a closer look

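Values of the named genes and of the library measures were examined for a mouse far from the rest of its group, by the gap from the highest or lowest mouse to its neighbour as a share of the range of the group. In 532 groups of values this gave 32 cases in 27 measures, where chance gives about 26.6 at 1 in 20. A gap to the nearest mouse cannot show a pair that stands apart on the same side, such as A3905 and A3906. For 0 of 129 named genes did every WT mouse and every KO mouse move in opposite directions.

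Among WT Control mice, the gap was wide for Nubp2 (A3903, lowest, 0.805), Cat (A1757, highest, 0.712), Cidec (A3767, lowest, 0.902) and Blvrb (A1757, highest, 0.758). The same held in WT Control mice for Clock (A1757, lowest, 0.758) and the hemoglobin share of counts (A1757, highest, 0.858). Among WT T1D mice, the gap was wide for Samd9l (A3909, highest, 0.693), Bcl2l13 (A3906, highest, 0.658), Per1 (A1758, lowest, 0.725) and Irs2 (A1758, highest, 0.674). The same held in WT T1D mice for Tsc22d3 (A1758, lowest, 0.690), Edem1 (A3906, lowest, 0.694) and Cr2 (A1758, highest, 0.741). Among KO Control mice, the gap was wide for Klf11 (A3670, highest, 0.654), Ccdc92b (A3766, lowest, 0.807), Bcl2l13 (A3766, lowest, 0.680) and Stfa2 (A3679, lowest, 0.691). The same held in KO Control mice for Cfd (A3672, highest, 0.632), Car2 (A3766, lowest, 0.681), Per1 (A3673, highest, 0.628) and Tie1 (A3670, highest, 0.656). The same held in KO Control mice for Blvrb (A3766, lowest, 0.677), Fcgr1 (A3766, highest, 0.676), Tsc22d3 (A3673, highest, 0.641) and Pfkl (A3766, lowest, 0.668). Among KO T1D mice, the gap was wide for Rhd (A3676, lowest, 0.761), Mcm7 (A3675, highest, 0.656), Ms4a7 (A3682, highest, 0.659) and Tsc22d3 (A3676, lowest, 0.683). The same held in KO T1D mice for Dusp1 (A3676, lowest, 0.776), Il7r (A3675, highest, 0.795) and the share of counts in the top 100 genes (A3674, highest, 0.662). The mouse, its side and the gap as a share of the range stand in parentheses. Of these, Samd9l and Klf11 passed the threshold for T1D.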

How the results depend on the processing

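No paired analysis was possible because the mouse names are not shared between groups. The count of genes past the threshold depended on the setting. Against 4 higher and 5 lower genes, the equal-weight mean of the WT and KO changes gave 8 and 8, DESeq2 27 and 32, robust edgeR 2 and 2, limma on log2(TPM + 1) or log2(TPM + 0.1) 0 and 2, and a minimum mean of 1 CPM 2 and 3. With every gene with at least 1 count, 3 were higher and 2 lower. The counts were 0 and 0 in the mice of the A36 to A39 series (2024 genes at an unadjusted p under 0.05), with the A17 series as a covariate (2053), with the erythroid score as a covariate (613) and without the genotype term (2089), all with edgeR. Without A3905 and A3906, 5 genes were called, Car1 as higher and Slfn5, Klk1, Oas2 and Cd4 as lower. Leaving out each mouse gave 0 to 5 higher and 0 to 7 lower genes (1589 to 2407 at an unadjusted p under 0.05). The size rule took 25 and 24 genes at a limit of 0.5, and 32 to 46 higher and 36 to 67 lower genes with 1 mouse left out. The cause of these differences was not tested. Other normalizations (RLE, upper quartile, hemoglobin genes left out) gave 9 genes each. Of 5025 pairs of a named gene and a setting, 4717 kept direction and side of the threshold, 234 lost the call, 46 gained it and 28 turned direction. With TPM + 1 and TPM + 0.1 these were Kit (-0.0032 and -0.0035), Pfkl (-0.024 and -0.026), Gp9 (-0.0051 and -0.0056), Itgb3 (-0.062 and -0.064) and Siglecf (-0.044 and -0.052), and with TPM + 0.1 Prss34 (-0.00038). With the erythroid score they were Grb10 (0.021), Fgf23 (-0.050), Pth1r (0.017), Thrsp (-0.070), Mb (0.053), Chil3 (-0.034), Siglecf (-0.017) and Sarm1 (0.035). Chil3 turned without A3905 and A3906 (-0.023), Tubb1 in the A36 to A39 series (-0.0075), and Sarm1 with voom (0.19), in the A36 to A39 series (0.11), with the A17 covariate (0.015) and without A3767 (0.0087), A3907 (0.060), A3905 (0.028) or A3672 (0.035; from -0.19 to 0.060 over all mice left out in turn). The TPM scale moved the median of all genes to -0.14 (TPM + 1). Genes under about 1 CPM, such as Madcam1, Tnfsf15 and Sarm1, are limited by depth.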
